A study of Mus musculus with 47 samples.

Results

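The comparison described here is that of skeletal muscle satellite cells from mice on a high-fat diet with those from mice on its control diet, both collected at ZT4 (zeitgeber time, counted in hours from lights on). Its members were chosen by their titles: 4 high-fat and 4 control samples, 8 of the 47 samples in the series. All were wild-type female C57B6/J mice that were 8 weeks old at the start, ate the high-fat diet or the respective control diet ad libitum for 7 weeks and were 15 weeks old at sampling. Each sample was the satellite cell RNA of 1 mouse, amplified and hybridised to 1 expression array, and the 8 mice of ZT4 were collected on the same day. The other 39 samples covered the same 2 diets at ZT0, ZT8, ZT12, ZT16 and ZT20, with 4 mice in each group except the high-fat group at ZT16, which had 3. Every time was collected on 1 day of its own, so the time of day and the day of collection cannot be told apart when ZT4 is set against another time.

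Satellite cells are the stem cells of skeletal muscle. They lie between the fibre and its basement membrane, are marked by the transcription factor Pax7, rest for most of adult life and divide after injury. Their resting state is tied to fatty acid oxidation in mitochondria, to the extracellular matrix that surrounds them and to the circadian clock, and a high-fat diet is a common way to raise the supply of fatty acids to the tissues of a mouse.

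The values were log2 expression levels that the authors had normalised across arrays, so every difference is relative to the other genes of the same array. A difference of 1 is a doubling of the hybridisation signal, and levels close to the background are compressed. Differences were tested with limma in a fit of all 47 arrays over 10258 genes, with p-values adjusted by the Benjamini-Hochberg method over all of these genes, and a gene is said to have risen or fallen where its adjusted p was under 0.05. At ZT4, 21 genes rose on the high-fat diet, 0.205% of the genes tested, and 11 fell, 0.107%. At an unadjusted p under 0.05 the numbers were 734 higher (7.16%) and 527 lower (5.14%). The median difference over all genes was 0.01.

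The 32 genes that passed the test had absolute differences from 0.28 to 1.22 with a median of 0.60, against 0.11 over all genes, and 17 of them differed by more than 1.5-fold, 13 upward and 4 downward. In 31 of the 32 the 4 high-fat arrays lay wholly above or wholly below the 4 control arrays. Such separation was seen upward in 3.1% and downward in 2.28% of all genes. The 32 genes were selected by a test of these same arrays, which favours separate groups. The fit draws its estimate of spread from all 12 groups: when only the 8 arrays of ZT4 were fitted, no gene had an adjusted p under 0.05 with limma, while 991 genes had an unadjusted p under 0.05. Single arrays also weighed on the counts. Without control replicate 2 the test left 7 higher and 3 lower genes, without control replicate 3 it left 13 and 3, and without high-fat replicate 3 it left 12 and 4. Of the 32 genes themselves, 8, 15 and 12 passed in these 3 fits. Ppif, Cdyl and Cpt2 kept their calls in every setting that fitted all groups and tested them. A filter at the 60th percentile left out Cdyl and Cpt2. Dnajb1, Ift122, Ppifos and 4930456A14Rik kept their calls in 6 or fewer of 15 or 16 settings. Centring each array on its median gave 20 higher and 31 lower genes, so the share of upward calls went from 65.6% to 39.2%, with a shift of -0.03 in the median of all genes. None of the 32 genes changed sign under any of the settings tried, all of which reuse arrays that selected these genes. Where the groups do not overlap, leaving out 1 array cannot change the sign.

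The 8 arrays resembled one another, with pairwise correlations from 0.963 to 0.978, and the median signal of 23 non-specific control probe sets, a measure of background, was 3.80 to 3.94. The markers of satellite cells were well above that level on both diets. Pax7 had a mean of 10.95 ± 0.07 (SD, n = 4) in control mice and 11 ± 0.15 in high-fat mice, and its difference of 0.04 ± 0.08 (SE) did not pass the test (adjusted p = 0.869, limma). Myf5, a myogenic factor of satellite cells, was at 10.61 ± 0.07 and 10.59 ± 0.13. Of the 15 satellite cell identity genes tested, 6 had positive and 9 negative differences, none passed the adjusted test, and the median was -0.02. Other cell types were represented to different degrees. Adgre1, which marks macrophages, had means of 4.64 and 4.63, Adipoq, the adipocyte hormone, 4.35 and 4.53, and Cd3e, a part of the T cell receptor, 3.99 and 4.20, all near the background. Other markers were far above it. Cd68, of macrophages and other phagocytic cells, had means of 9.05 ± 0.40 and 8.62 ± 0.34, the smooth muscle markers Acta2 and Myh11 11.22 and 11.07 on the control diet and 11.12 and 10.95 on the other, the pericyte marker Rgs5 9.76 ± 0.65 and 10.41 ± 0.47, and Mbp, of Schwann cells, 9.36 and 9.22. Pdgfra, the surface marker of fibro-adipogenic cells, was likewise near the background at 4.38 and 4.37, while the matrix genes Dcn and Col1a1, which those cells express strongly, had means of 10.49 and 9.93 on the control diet and 10.23 and 9.40 in the high-fat mice. Dpt, a further marker of those cells, was at 11.39 and 11.44. Unlike Cd3e, the lymphocyte marker Cd79a was well above the background, with means of 7.54 in control mice and 7.47 in high-fat mice. The endothelial markers Pecam1 (6.77 and 6.57) and Cdh5 (6.99 and 6.58) were above it too. Sox10, a second Schwann cell marker, had means of 7.19 ± 0.08 and 7.46 ± 0.28, a difference of the opposite sign to that of Mbp. Acta1, the actin of mature fibres, ranged over the 8 arrays from 5.40 to 7.82 and Hba-a1, a haemoglobin of red cells, from 6.93 to 10.54. In such bulk samples fewer cells of a type and less RNA per cell cannot be told apart.

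**Figure D1:**
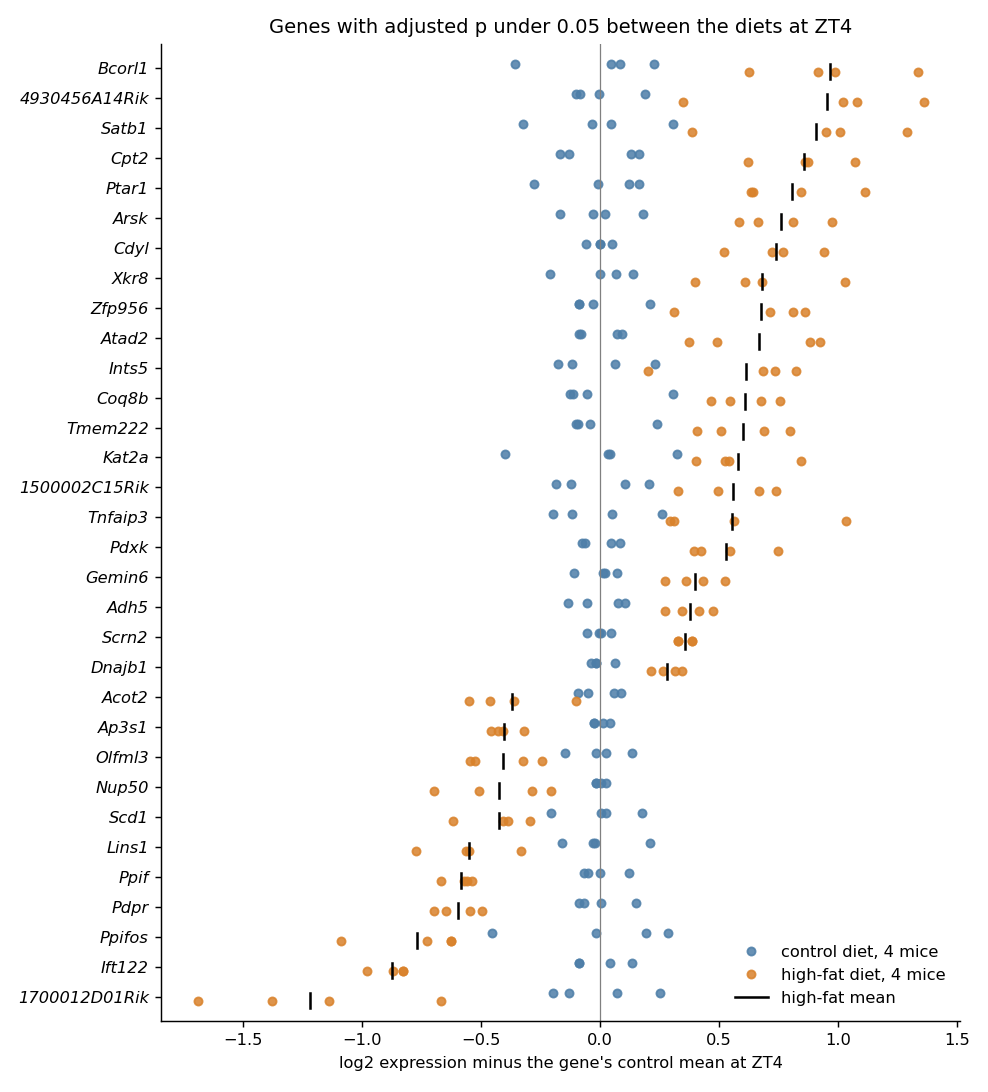
Log2 expression of the 32 genes that passed the test at ZT4, shown for each array as the distance from the mean of the 4 control arrays, with control and high-fat mice in separate colours. In every gene but Ints5 the high-fat and control points do not overlap, and the mean distances run from -1.22 for 1700012D01Rik to 0.97 for Bcorl1.

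Of the called genes that code for enzymes or regulators of metabolism, a grouping made after their values were known, Cpt2, Coq8b, Pdxk and Adh5 rose, while Scd1, Acot2, Ppif and Pdpr fell. Cpt2 codes for the carnitine palmitoyltransferase of the inner mitochondrial membrane, which remakes acyl-CoA from acylcarnitine inside the mitochondrion and so admits long-chain fatty acids to beta-oxidation. Its log2 level was 5.35, 5.61, 5.64 and 5.31 in the control mice and 6.34, 6.55, 6.10 and 6.35 in the high-fat mice. All high-fat arrays lay well above all control arrays, and the increase was 1.81-fold, with an adjusted p of 1.57e-06 (limma), the smallest of all genes. At the other times the Cpt2 difference was small and of either sign, from -0.17 to 0.15. The control level of Cpt2 lay below 5.80, the value used as the filter on the mean of all arrays, in a range where array signals are compressed.

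Cpt2 was the only member of the carnitine shuttle and beta-oxidation list to pass. Of 18 members tested, 10 differences were positive and 8 negative, and the median was 0.02, close to the 0.01 of all genes. Etfdh, which passes electrons from fatty acid oxidation to coenzyme Q, had a difference of -0.42 ± 0.18 with an adjusted p of 0.303 (limma), and Etfa, a subunit of its electron donor, one of 0.21 ± 0.09. Among 12 genes known as lipid-induced targets of the PPAR receptors the median was 0.03, and 1 passed, Acot2. Acot2 encodes a mitochondrial thioesterase that splits acyl-CoA into free fatty acid and coenzyme A. Its level was 7.08, 7.05, 6.94 and 6.9 in control mice and 6.53, 6.89, 6.63 and 6.44 in high-fat mice, a difference of -0.37 ± 0.08 with an adjusted p of 0.0302 (limma). High-fat replicate 2 all but reached the lowest control array. Angptl4, a secreted inhibitor of lipoprotein lipase and a classical target of these receptors, was higher by 0.64 ± 0.19 and Ppara, one of the receptors, had a difference of -0.66 ± 0.19, and neither passed (adjusted p = 0.123 and 0.11, limma). Other probe sets gave 1.45 for Angptl4, and 0.30 and 0.07 for Ppara, of the opposite sign to the value used. The groups of Angptl4 did not overlap at ZT4, and its difference was positive at all 6 times. It passed at ZT8 (1.088, adjusted p = 0.00259), ZT12 (0.767, adjusted p = 0.0438) and ZT16 (1.485, adjusted p = 5.5e-06, limma).

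Scd1, the desaturase that turns stearoyl-CoA into oleoyl-CoA, fell. The 4 control arrays were at 9.77, 9.98, 10.00 and 10.15 and the 4 high-fat arrays at 9.59, 9.68, 9.57 and 9.36. The groups did not overlap, the difference was -0.42 ± 0.08 and the adjusted p was 0.00596 (limma). Scd1 was among the few genes that passed at another time in the same direction, with -0.53 at ZT8 (adjusted p = 0.000231). A second probe set of the gene gave -0.23 at ZT4, and the call was lost only when the probe sets were averaged (adjusted p = 0.0588), in the fits that kept all 12 groups. The list of fatty acid synthesis and desaturation as a whole was evenly divided, with 9 positive and 9 negative differences among 18 genes and a median of -0.05. Elovl5, which lengthens polyunsaturated fatty acids, lay on the other side from Scd1 with a difference of 0.31 ± 0.10 that did not pass (adjusted p = 0.151), although its 4 high-fat arrays lay above the 4 control arrays.

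Ppif encodes cyclophilin D, the matrix protein that sensitises the mitochondrial permeability transition pore. It was at 8.93, 8.86, 9.05 and 8.88 in the control mice and at 8.36, 8.37, 8.26 and 8.39 in the high-fat mice. The arrays of each group lay close together and those of the groups were well apart, for a decrease of 1.5-fold (-0.58 ± 0.11, adjusted p = 0.0114, limma). Ppif passed in 16 of 16 other settings of the fit of all groups, with an adjusted p of at most 0.0482. Its annotated antisense transcript Ppifos fell as well (-0.77 ± 0.18, adjusted p = 0.0494, limma), with high-fat levels of 5.86 to 6.32 and control levels of 6.49 to 7.23. The pair comes from overlapping DNA, and since the sources used here do not state how the amplified product keeps strand, the transcripts cannot be told apart with certainty.

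Pdpr, the regulatory subunit of the phosphatase that reactivates pyruvate dehydrogenase, fell from control levels of 8.10, 8.34, 8.12 and 8.19 to 7.54, 7.49, 7.69 and 7.64. The difference was -0.60 ± 0.13 (adjusted p = 0.0235, limma), but 3 further probe sets of Pdpr gave smaller differences of -0.11, -0.21 and -0.27. Coq8b, an atypical kinase needed for coenzyme Q synthesis, rose from 8.43, 8.01, 8.07 and 8.00 to 8.67, 8.80, 8.59 and 8.88 (0.61 ± 0.13, adjusted p = 0.0229, limma). Control replicate 1 stood above the other control arrays there and still below every high-fat array. Adh5, the alcohol dehydrogenase that clears formaldehyde bound to glutathione, was at 10.06, 9.85, 10.09 and 9.93 in control mice and at 10.33, 10.26, 10.40 and 10.46 in high-fat mice. Adh5 rose by 0.38 ± 0.08 at ZT4 (adjusted p = 0.0302, limma) and had a negative difference at each of the other 5 times. Pdxk, the kinase that makes the active form of vitamin B6, rose by 0.53 ± 0.11 (adjusted p = 0.0229, limma). Other probe sets of Pdxk gave 0.08 and 0.45.

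The nuclear genes of the respiratory chain gave no calls. Of 39 genes of complex I none passed the adjusted test, 19 differences were positive and 20 negative, and the median was -0.002. Ndufs3, a core subunit of the peripheral arm, was the member with separate groups upward, from 8.36 to 8.61 in control mice and from 8.72 to 8.91 in high-fat mice, with an adjusted p of 0.0881 (limma). In the tricarboxylic acid cycle list 12 of 15 genes had positive differences, with a median of 0.10, and none passed. Pdha1, the catalytic subunit of pyruvate dehydrogenase, had a difference of 0.30 ± 0.11 there, but its second probe set gave -0.03.

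A group of genes that act on chromatin or transcription rose. Bcorl1, Satb1, Cdyl, Atad2, Kat2a and the zinc finger gene Zfp956 were all higher, by 0.58 to 0.97 on the log2 scale. They were picked out by function after their values were known and are no list of their own. Bcorl1, a corepressor related to the partner of BCL6, was at 6.61, 7.01, 7.19 and 7.05 in control mice and at 8.30, 7.88, 7.95 and 7.59 in high-fat mice, a rise of 1.95-fold (adjusted p = 0.00135, limma). Its 4 high-fat arrays were all higher than its control arrays, but a second probe set of Bcorl1 gave -0.06, so the rise was seen by 1 of 2 probe sets.

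Cdyl, a chromodomain protein that recruits repressive complexes, had control arrays close together, with 5.76, 5.81, 5.76 and 5.70 in control mice and 6.53, 6.28, 6.70 and 6.48 in high-fat mice. Its difference was 0.74 ± 0.13 (adjusted p = 0.00365, limma), 2 other probe sets of the gene gave 0.38 and 0.53, and it passed in 15 of 15 other settings of the fit of all groups. At ZT8 Cdyl passed in the opposite direction, at -0.50 (adjusted p = 0.0344). Satb1, which organises chromatin loops, was at 5.82, 5.53, 6.16 and 5.9 against 7.14, 6.24, 6.8 and 6.86. High-fat replicate 2 was close to the control arrays, and the rise of 0.91 ± 0.21 had an adjusted p of 0.0403 (limma). Other probe sets of Satb1 gave -0.19 and 0.36.

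Kat2a, the GCN5 histone acetyltransferase, was at 7.75, 7.31, 7.74 and 8.03 in the control mice and 8.11, 8.23, 8.25 and 8.55 in the high-fat mice, and rose by 0.58 ± 0.13 (adjusted p = 0.0302, limma). The groups of Kat2a lay close to each other without overlap, and its other probe set gave 0.05. Atad2, a bromodomain ATPase that binds acetylated histones, rose by 0.67 ± 0.14 (adjusted p = 0.0235, limma), with control arrays at 8.33 to 8.51 and high-fat arrays at 8.79 to 9.34. Its other probe sets gave 0.34 and -0.11. Zfp956 rose by 0.68 ± 0.16 (adjusted p = 0.0403, limma). Ints5, a subunit of the Integrator complex that ends transcription of small nuclear RNAs, was the called gene with overlapping groups: high-fat replicate 3, at 8.63, lay under control replicate 3, at 8.66, while the other 3 high-fat arrays were at 9.11 to 9.25. The other 3 probe sets of Ints5 gave -0.07, -0.08 and -0.19. Gemin6, of the complex that assembles spliceosomal particles, rose by 0.40 ± 0.08 (adjusted p = 0.0229, limma). The 18 genes of polycomb and chromatin silencing had a median of 0.04, and none of them passed.

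Promoters of 3 genes are printed here because 1 of them, Tnfaip3, rose at ZT4 and belongs to the targets of NF-kB, and the other two, Hspe1 and Hsph1, are heat shock genes chosen because their windows hold a heat shock motif. Each is the stretch of 250 bases before the annotated start in RefSeq's GRCm38.p6 annotation, 5′ to 3′ on the strand of the gene, and the capitals mark the letters that match the motif named after it.
Hspe1: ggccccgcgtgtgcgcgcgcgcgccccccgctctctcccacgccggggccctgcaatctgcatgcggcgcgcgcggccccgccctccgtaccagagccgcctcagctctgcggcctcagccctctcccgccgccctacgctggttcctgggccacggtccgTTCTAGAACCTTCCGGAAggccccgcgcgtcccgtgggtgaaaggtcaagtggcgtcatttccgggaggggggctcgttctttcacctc
Hsph1: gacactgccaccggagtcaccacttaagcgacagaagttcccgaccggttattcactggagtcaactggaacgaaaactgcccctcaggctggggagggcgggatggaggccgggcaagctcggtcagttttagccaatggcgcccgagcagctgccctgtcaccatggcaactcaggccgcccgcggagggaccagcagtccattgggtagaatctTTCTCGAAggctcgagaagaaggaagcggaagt
Tnfaip3: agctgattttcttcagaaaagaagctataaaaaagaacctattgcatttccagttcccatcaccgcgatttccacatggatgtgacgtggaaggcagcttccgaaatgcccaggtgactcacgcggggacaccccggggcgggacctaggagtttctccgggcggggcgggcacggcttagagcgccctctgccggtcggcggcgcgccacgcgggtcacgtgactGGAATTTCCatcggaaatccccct

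The Hspe1 sequence is chr1:55087898-55088147 on the forward strand, that of Hsph1 chr5:149636337-149636586 and that of Tnfaip3 chr10:19015411-19015660, both on the reverse strand. Hsph1 and Tnfaip3 have 2 starts in the promoter table, and the one farther upstream is shown. The gene record of Hsph1 reaches beyond both of its starts, to base 149636498, so the Hsph1 stretch lies partly inside the annotated gene. The motif searched for the heat shock factor was GAANNTTC or TTCNNGAA and the one for NF-kB was GGANTTTCC, each on both strands and with overlaps allowed. Other forms of these sites were not searched and are not in capitals. Of 32851 promoter windows 12.8% held a heat shock motif and 1.07% the NF-kB motif. In Hspe1 the capitals hold TTCNNGAA at 89 to 82 and at 79 to 72 bases before the start and GAANNTTC at 84 to 77, which overlap each other. In Hsph1 a single TTCNNGAA lies at 33 to 26 bases, and in Tnfaip3 the NF-kB motif lies at 24 to 16. The windows of the heat shock genes Dnajb1, Chordc1 and Stip1 held no heat shock motif, while 1 window of Cdyl, which is on no heat shock list, held TTCNNGAA. The window of Birc3, which is on the NF-kB list, held no NF-kB motif. A match of letters is a description of the sequence only.

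Tnfaip3 encodes A20, the ubiquitin-editing enzyme that damps NF-kB signalling, and is itself switched on by NF-kB. It was at 8.95, 8.74, 8.57 and 8.49 in control mice and at 8.98, 9.72, 9.25 and 9 in high-fat mice. The lowest high-fat array lay just above the highest control array, and the rise was 0.55 ± 0.13 (adjusted p = 0.0332, limma). Tnfaip3 also rose at ZT0 (0.49, adjusted p = 0.0251), at ZT12 (0.49, adjusted p = 0.0489) and at ZT16 (1.51, adjusted p = 6.61e-10), and its difference at ZT4 lay close to the mean of the other times (-0.01 against that mean, adjusted p = 0.98). The call was lost in 7 of 16 other settings of the fit of all groups, among them the omission of high-fat replicate 2, the highest array.

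The NF-kB list of 24 genes, of which Tnfaip3 alone passed the adjusted test, had 16 positive and 8 negative differences and a median of 0.13 against 0.01 over all genes. At an unadjusted p under 0.05, 8 members were higher and 1 was lower, beside 7.16% and 5.14% of all genes. Birc3, an inhibitor of apoptosis, was higher by 0.49 ± 0.13 (adjusted p = 0.0746; 0.91 by its other probe set), and Sod2, the superoxide dismutase of mitochondria, by 0.47 ± 0.14 (adjusted p = 0.118). Rel, a subunit of NF-kB itself, had the opposite sign at -0.44 ± 0.19. Birc3 passed upward at ZT0 (0.694, adjusted p = 0.00308), ZT8 (0.685, adjusted p = 0.00438) and ZT16 (0.645, adjusted p = 0.00192, limma). High-fat replicate 2 had the highest mean over the list, 8.51, beside 8.27, 8.38 and 8.23 in the other high-fat mice and 8.13 to 8.26 in the control mice, so the groups overlapped.

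Dnajb1, the HSP40 cochaperone that hands unfolded proteins to HSP70, rose by a small amount with little spread. The control arrays were at 10.75, 10.73, 10.75 and 10.83 and the high-fat arrays at 10.98, 11.11, 11.08 and 11.03. Those groups did not overlap, and the difference of 0.28 ± 0.07 had an adjusted p of 0.0432 (limma). Dnajb1 passed upward also at ZT16 and ZT20 (0.27 and 0.36).

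In the list of 18 heat shock chaperones 14 differences were positive and 4 negative, with a median of 0.14, and 9 members were higher and 1 lower at an unadjusted p under 0.05, beside 7.16% and 5.14% of all genes. Dnajb1 was the member that passed the adjusted test. The mean of the list was 9.94, 10.02, 9.99 and 10.03 in the control mice and 10.04, 10.17, 10.16 and 10.11 in the high-fat mice. The groups did not overlap, by a narrow margin (10.03 against 10.04). Hspe1, the small cochaperonin of the mitochondrial HSP60 machine, was at 10.77, 10.80, 10.63 and 10.91 and at 10.95, 11.13, 11.41 and 10.92, and missed the threshold (0.32 ± 0.08, adjusted p = 0.0531). Hsph1, an HSP110 exchange factor, had a difference of 0.36 ± 0.10 (adjusted p = 0.0787), and Chordc1, a cochaperone of HSP90, one of 0.57 ± 0.16 (adjusted p = 0.0919). High-fat replicate 3 was the highest array in each of these 3 genes.

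Further genes that rose act at membranes or have less defined roles. Ptar1, named for its prenyltransferase repeats, was at 8.22, 7.95, 8.35 and 8.39 in the control mice and at 8.87, 8.86, 9.34 and 9.07 in the high-fat mice (0.81 ± 0.16, adjusted p = 0.0118, limma). Its other probe sets gave 0.43, 0.53 and 0.09. Arsk, a lysosomal sulfatase, rose by 0.76 ± 0.14 (adjusted p = 0.00971) and Xkr8, the scramblase that exposes phosphatidylserine in dying cells, by 0.68 ± 0.14 (adjusted p = 0.0139, limma). A second probe set of each gave less, 0.16 for Arsk and 0.18 for Xkr8. The call of Arsk was lost when its probe sets were averaged (adjusted p = 0.0509, limma). The high-fat arrays of Xkr8 ran from 6.02 to 6.65, with replicate 4 highest, and without that replicate the adjusted p was 0.068. Tmem222 (0.60), Scrn2 (0.36), 1500002C15Rik (0.56) and 4930456A14Rik (0.95) also rose. Adjusted p-values of these 4 genes were between 0.0302 and 0.0459, and the call of 4930456A14Rik was kept in 4 of 15 other settings. A second probe set gave 0.12 for 4930456A14Rik and 0.24 for Scrn2.

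Among the genes that fell, 1700012D01Rik had the largest difference. It was at 7.02, 6.75, 7.2 and 6.82 in the control mice and at 5.26, 6.28, 5.81 and 5.57 in the high-fat mice (-1.22 ± 0.26, adjusted p = 0.0235, limma). At ZT16 the same gene, 1700012D01Rik, rose by 1.15 (adjusted p = 0.00495), and its symbol gives no function. Ift122, of the transport complex that returns cargo from the tip of the cilium, fell from 8.18, 8.27, 8.05 and 8.05 to 7.31, 7.16, 7.31 and 7.27 (-0.87 ± 0.21, adjusted p = 0.0469, limma). A second probe set of Ift122 gave -1.02 without overlap of the groups. It was also the one called gene with the same sign at all 6 times, but its adjusted p crossed the threshold when any 1 of the 8 arrays was left out, reaching at most 0.114 over the settings.

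Olfml3, a secreted olfactomedin-like protein, was at 9.51, 9.68, 9.79 and 9.64 in control mice and at 9.13, 9.41, 9.11 and 9.33 in high-fat mice. It fell by 0.41 at ZT4 (adjusted p = 0.0302) and rose by 0.33 at ZT0 (adjusted p = 0.0308, limma). Ap3s1, the small subunit of the adaptor that sorts cargo to lysosomes, fell from 8.14 to 8.21 down to 7.71 to 7.85 (-0.40 ± 0.08, adjusted p = 0.0229) and fell at ZT0 too (-0.33, adjusted p = 0.0243). Nup50, a nucleoporin that aids nuclear import, fell (-0.42 ± 0.10, adjusted p = 0.0318, limma) from 9.11 to 9.15 down to 8.43 to 8.92, but its other probe sets gave 0.00 and -0.05. Lins1 fell too (-0.55 ± 0.12, adjusted p = 0.0235, limma), and its second probe set gave 0.00.

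Of the 32 called genes, 20 had further probe sets on the array, 31 in all. Of these 31, 23 had the sign of the probe set used, and 12, in 10 genes, had the same sign and at least 50% of its size. The probe set used for each gene was the one with the highest mean over all arrays, a choice that does not look at the diet. When all probe sets of a gene were averaged instead, 23 genes passed upward and 12 downward, and 16 of the 32 were among them.

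Lists of genes were compared with the whole table by their counts and medians. Of 72 lists, 60 of pathways and 12 of cell types, 66 had no member that passed the adjusted test at ZT4, and 26 of the 32 called genes were in no list. The median of a list kept its sign under all settings in 27 of the 72.

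**Figure D2:**
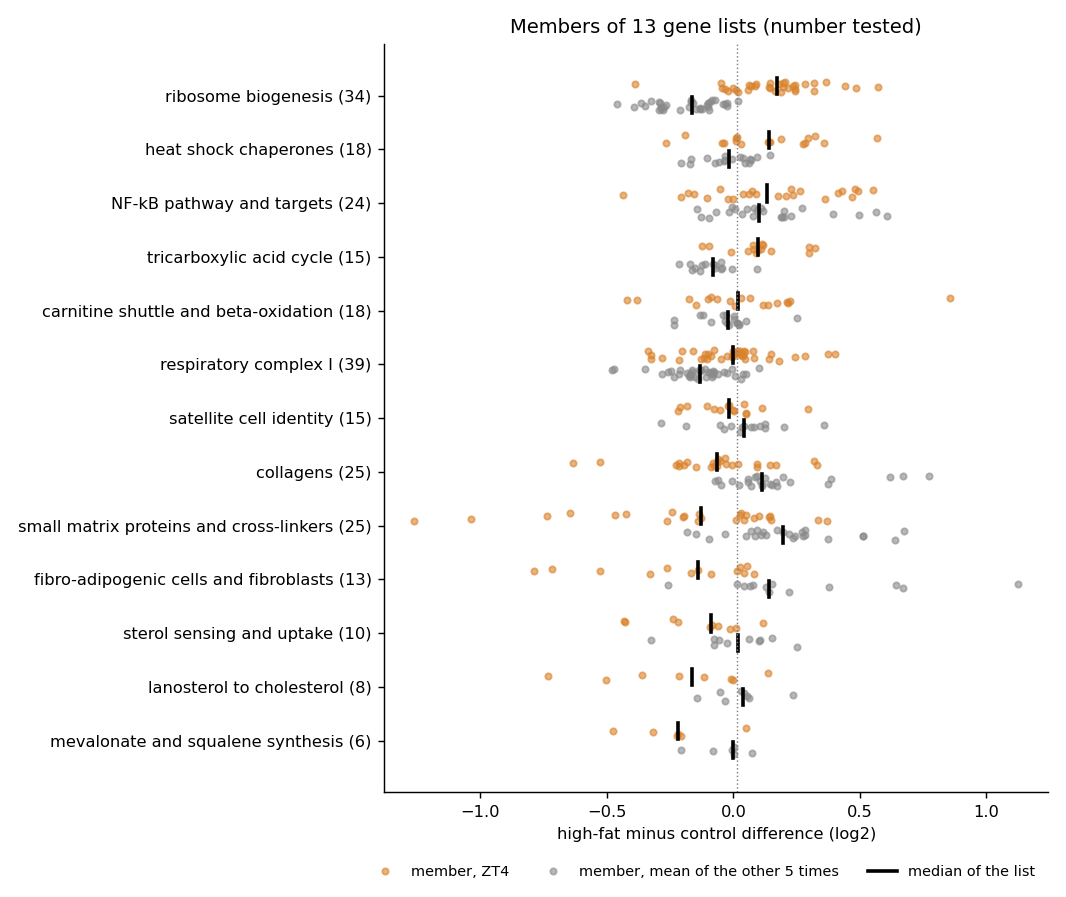
High-fat minus control difference (log2) of every tested member of 13 gene lists, at ZT4 and as the mean of the other 5 times, with the median of each list as a black bar and the median of all genes at ZT4 (0.01) as a dotted line. Ribosome biogenesis lies to the right at ZT4 (median 0.17) and to the left at the other times (median -0.16), and the 3 sterol lists lie to the left at ZT4.

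Genes of ribosome biogenesis, which make and process ribosomal RNA in the nucleolus, had the largest median among lists of more than 10 genes in the plot of list members. Of 34 members 28 had positive and 6 negative differences, the median was 0.17, and 8 were higher and none lower at an unadjusted p under 0.05 (7.16% and 5.14% of all genes), but no member passed the adjusted test. The mean of the list overlapped between the groups, at 8.58 to 8.86 in the control mice and 8.76 to 8.94 in the high-fat mice. At ZT0, ZT8, ZT12 and ZT16 the median of the same genes was negative, from -0.31 to -0.14, and at ZT20 it was 0.01. Dkc1, the pseudouridine synthase of the box H/ACA particles, was at 8.85, 8.72, 8.62 and 8.65 against 8.87, 9.10, 9.57 and 9.59 (0.57 ± 0.18, adjusted p = 0.14, limma). Cytosolic ribosomal proteins, 69 genes, had means of 11.48 to 11.60 and 11.42 to 11.61 in the groups.

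The 3 lists of sterol metabolism had mostly negative differences, without any member passing the adjusted test. Of 6 genes of mevalonate and squalene synthesis 5 differences were negative (median -0.22), of 8 genes from lanosterol to cholesterol 7 (median -0.16), and of 10 genes of sterol sensing and uptake 8 (median -0.09). The mean over the lanosterol list was 7.80, 7.74, 7.71 and 7.76 in the control mice and 7.48, 7.61, 7.65 and 7.37 in the high-fat mice. In each of the 3 lists the highest high-fat array lay below the lowest control array, in the mevalonate list by a hair's breadth (7.92 against 7.93). The list means were separate upward for heat shock chaperones and for p53 and DNA damage. Those of p53 and DNA damage ran from 7.85 to 7.99 in control and 8.02 to 8.05 in high-fat mice. In all other lists the groups overlapped. Nsdhl, a dehydrogenase that removes methyl groups from the sterol ring, had levels of 8.18, 8.53, 8.26 and 8.54 against 7.22, 8.06, 7.87 and 7.43, which did not overlap (-0.73 ± 0.22, adjusted p = 0.11, limma). Msmo1, the oxidase of the same stretch of the pathway, was also without overlap at 6.42 to 6.91 and 5.98 to 6.35 (-0.50 ± 0.13, adjusted p = 0.0749), but its second probe set gave 0.18. Npc1, which exports cholesterol from lysosomes, had a difference of -0.43 ± 0.14 (adjusted p = 0.141). The medians of the lanosterol list at the other times changed sign from one time to the next, with 0.31 at ZT0, -0.25 at ZT8, 0.28 at ZT12, -0.22 at ZT16 and 0.02 at ZT20. The median of the mevalonate list was lower at ZT8 (-0.282) and ZT16 (-0.415) than at ZT4, and positive at ZT0, ZT12 and ZT20. That of sterol sensing and uptake was lower at ZT8 (-0.248) than at ZT4, and -0.016 to 0.181 at the remaining times.

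Basement membrane genes and collagens had mostly negative differences at ZT4, beside 4800 of all 10258 genes. Small matrix proteins and cross-linkers were about evenly divided, and some matrix genes spread widely between mice. Of 13 basement membrane genes 12 differences were negative (median -0.12), and of 25 collagens 18 (median -0.06), with none passing the adjusted test. Of 25 small matrix proteins and cross-linkers 13 were negative and 12 positive, with a median of -0.13 that moved as far as 0.02 under other settings. Fn1, fibronectin, was at 8.06, 10.47, 8.63 and 8.87 in the control mice and at 7.63, 7.59, 7.76 and 8.01 in the high-fat mice (-1.26 ± 0.32, adjusted p = 0.0659, limma). Control replicate 2 was far above all other arrays for Fn1, and the remaining control arrays still exceeded every high-fat array. Lox, which cross-links collagen and elastin, was at 7.92, 7.98, 9.16 and 8.82 against 7.68, 7.43, 7.69 and 6.94 (-1.04 ± 0.29, adjusted p = 0.0922, limma), and its other probe sets gave -1.18 and -0.06.

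The markers of fibro-adipogenic cells and fibroblasts also had a negative median. Of 13 tested 8 differences were negative, the median was -0.14, and the mean over the list ran from 8.49 to 8.84 in the control mice and from 8.22 to 8.85 in the high-fat mice, with high-fat replicate 4 as high as the highest control array. Pdgfra, the defining marker, was near the background in both groups. The 5 tenocyte markers had a median of -0.25, and their list mean ran from 7.07 to 7.81 and from 7.01 to 7.19. All 6 adipocyte markers tested had negative differences (median -0.16), while Adipoq was near the background. The part of these cells in the matrix differences was not tested.

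No core clock gene passed the test at ZT4. Arntl, the positive factor BMAL1, had a difference of -0.23 ± 0.33, Clock of -0.23 ± 0.18, Per1 of -0.11 ± 0.14 and Cry1 of 0.10 ± 0.12. Per2, a repressor of the loop, was at 7.87, 8.88, 8.06 and 8.25 in the control mice and at 8.77, 8.54, 8.92 and 9.01 in the high-fat mice (0.54 ± 0.16, adjusted p = 0.11, limma). Control replicate 2 lay among the high-fat arrays of Per2. Rora, an activator of Arntl, had a difference of -0.22 ± 0.07 (adjusted p = 0.141, limma). Other probe sets gave -0.52 for Arntl, 0.29 for Per2, and 0.08, 0.25 and -0.47 for Clock. Those of Rora gave 0.14, 0.13, -0.44 and -0.07.

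**Figure D3:**
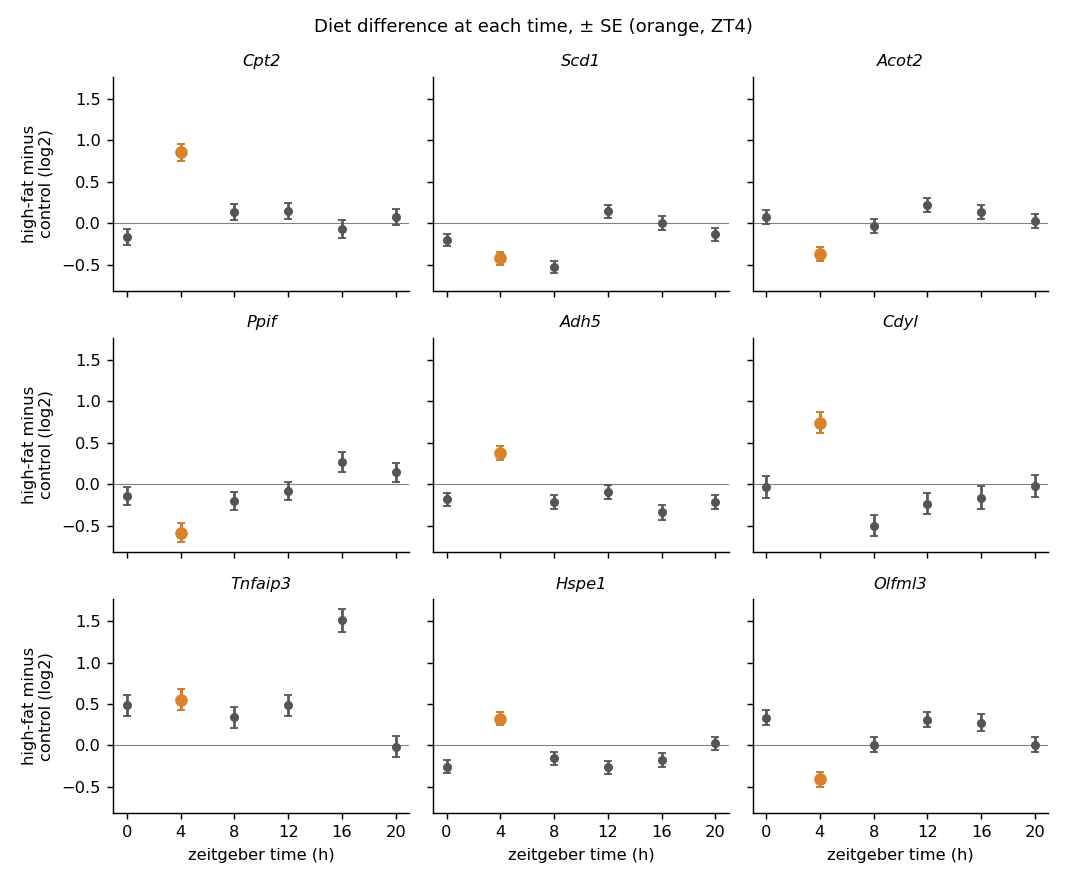
High-fat minus control difference (log2) with its standard error at each of the 6 times for 9 genes, with ZT4 in orange. Cpt2 (0.85 at ZT4) and Cdyl (0.74) are high at ZT4 and near or below 0 elsewhere, Scd1 is lower at ZT4 and ZT8, and Tnfaip3 is positive at 5 times with its peak at ZT16 (1.51).

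The calls at ZT4 were few beside those of most other times, at which 365 genes passed at ZT0, 183 at ZT8, 88 at ZT12, 1360 at ZT16 and 84 at ZT20. The 32 genes called at ZT4 had the same sign in 12 cases at ZT0, 18 at ZT8, 13 at ZT12, 10 at ZT16 and 17 at ZT20. Over all genes the share with the same sign as at ZT4 was 46.2% to 50.3% at those times. At another time 6 of the 32 passed in the same direction (Scd1, Ap3s1, Dnajb1, Tnfaip3, Arsk and Satb1), and 7 passed in the opposite direction.

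The diet difference at ZT4 was then set against the mean of the diet differences at the other 5 times in the same fit. It was more positive at ZT4 in 169 genes (1.65%) and more negative in 93 (0.907%), at an adjusted p under 0.05. Of these 262 genes, 25 were also called at ZT4 itself, a comparison that shares its 8 arrays with this one, and 237 were not. In 252 of the 262 the sign at ZT4 was opposite to that of the mean elsewhere, as selection for a large contrast favours. Leaving out high-fat replicate 4 left 103 genes, and leaving out control replicate 2, 3 or 4 left 145, 137 and 133. Without ZT16 among the other times, an alternative chosen after seeing the data, 211 genes passed, 173 of them among the 262.

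**Figure D4:**
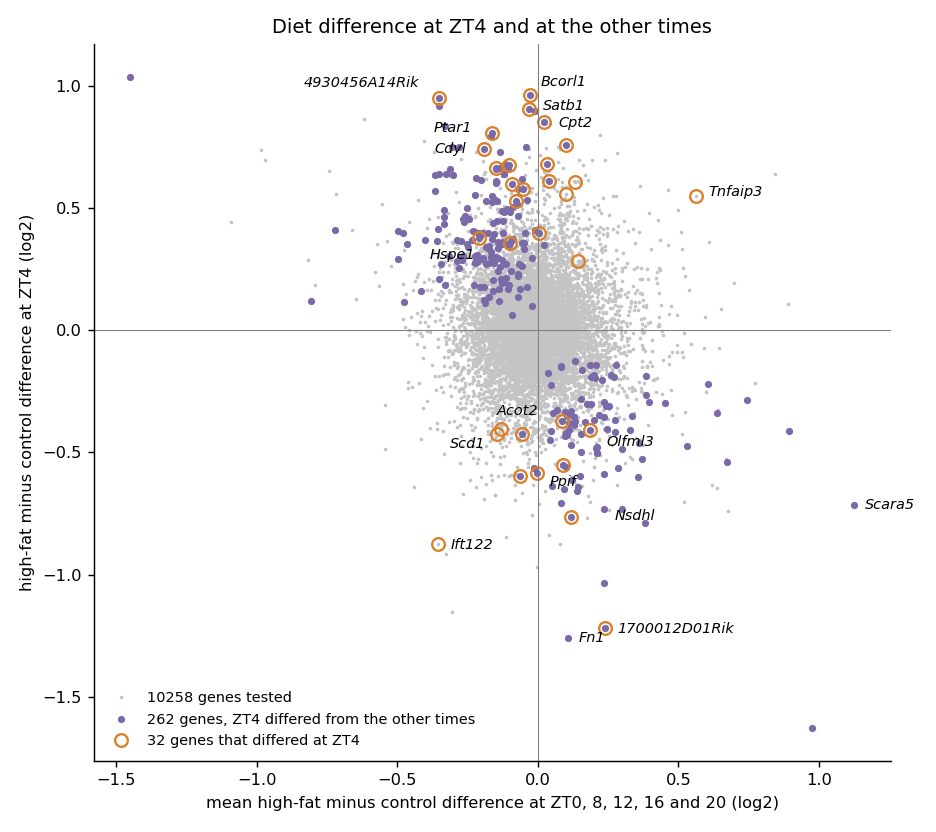
Each gene's high-fat minus control difference (log2) at ZT4 on the vertical axis against the mean of its differences at the other 5 times on the horizontal axis, for 10258 genes. The 262 genes whose ZT4 difference departed from the other times lie mostly at the upper left and lower right, Cpt2 lies on the vertical line near 0.85, and Tnfaip3 lies to the right with a positive value on both axes.

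The 8 genes with the smallest p-values in that contrast were Cpt2, Cdyl, Adh5, Olfml3, Bcorl1, Deptor, Hspe1 and Ptar1. Cpt2 differed from the other times by 0.83 (adjusted p = 3.2e-05), Cdyl by 0.93 (adjusted p = 0.000385) and Adh5 by 0.59 (adjusted p = 0.000545, limma). Hspe1, whose difference at ZT4 alone missed the threshold, differed by 0.49 ± 0.09 (adjusted p = 0.00215), with differences of -0.26 to 0.03 at the other times. The heat shock genes Hsph1 (0.41, adjusted p = 0.0284) and Stip1 (0.45, adjusted p = 0.0484) were more positive at ZT4 as well, so 3 of the 18 chaperones passed upward in the contrast and none downward, beside 1.65% and 0.907% of all genes. Without ZT16 among the other times, Hspe1 kept its call (adjusted p = 0.00412), while Hsph1 (0.37, adjusted p = 0.0561) and Stip1 (0.26, adjusted p = 0.307) did not. Deptor, an inhibitor of mTOR, had -0.20 at ZT4 and positive differences at every other time, from 0.05 to 0.66, for a contrast of -0.43 (adjusted p = 0.00215, limma).

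Further members of the lists stood apart from the other times without passing at ZT4 itself. Elovl5 did so by 0.57 (adjusted p = 0.00475), with negative differences at all 5 other times, and Ndufs3 by 0.54 (adjusted p = 0.00925, limma). Ppargc1b, a coactivator of mitochondrial genes, was at 6.31, 6.20, 7.00 and 7.30 in the control mice and 6.91, 7.39, 7.67 and 7.40 in the high-fat mice at ZT4, and its contrast of 1.00 (adjusted p = 0.0218) came with differences of -1.05 to -0.04 elsewhere. Pprc1, which codes for a related coactivator, had a contrast of 0.61 (adjusted p = 0.0406). Without ZT16 neither coactivator passed (adjusted p = 0.0692 for Ppargc1b and 0.0931 for Pprc1). The ribosome biogenesis genes Dkc1 (0.94, adjusted p = 0.00925), Noc3l (0.64, adjusted p = 0.0204) and Ltv1 (0.58, adjusted p = 0.0483) were more positive at ZT4. With Npm1, the nucleolar chaperone nucleophosmin (0.16, adjusted p = 0.0218), 4 of the 34 members of the list passed upward and none downward, beside the 1.65% and 0.907% of all genes. Ltv1 did not pass without ZT16 (adjusted p = 0.101), and the other three did.

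Several matrix genes and markers of fibroblasts were more negative at ZT4, though few members of any list passed: 2 of 25 small matrix proteins and cross-linkers, 1 of 23 matrix processing enzymes, 0 of 25 collagens and 0 of 13 basement membrane genes, beside 0.907% of all genes. Scara5, a ferritin receptor of fibro-adipogenic cells, had a difference of -0.72 ± 0.40 at ZT4 and positive differences of 0.74 to 1.78 at each other time, for a contrast of -1.84 (adjusted p = 0.0169, limma). At ZT4 its control arrays ran from 6.96 to 9 and its high-fat arrays from 6.4 to 7.78, so the groups overlapped. Fn1 (-1.37, adjusted p = 0.0311), Lox (-1.27, adjusted p = 0.0272), Pcolce2 (-1.17, adjusted p = 0.0161) and Igfbp5 (-1.31, adjusted p = 0.028) were likewise more negative at ZT4. Pcolce2, which promotes the trimming of procollagen, and Scara5 are on the list of fibroblast markers. Of that list 2 of 13 passed downward and none upward, beside 0.907% and 1.65% of all genes. Pcolce2 is not among the 23 matrix processing enzymes. Igfbp5 is on the list of the IGF axis, where 1 of 8 passed downward and 0 upward. In the sterol lists 1 of 8 genes from lanosterol to cholesterol passed downward, Nsdhl (-0.97, adjusted p = 0.0218), 1 of 10 of sterol sensing and uptake, Npc1 (-0.54, adjusted p = 0.0426), and 0 of 6 of the mevalonate list. Without ZT16, Nsdhl passed at an adjusted p of 0.0499 and Npc1 did not pass (-0.43, adjusted p = 0.134).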

How the data were processed

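Satellite cell RNA of 1 mouse per array was measured on expression arrays, and the log2 values are the authors' deposited table. Per the submitters' processing notes it was made with RMA, with version and settings not given in the sources used here. Of 45141 probe sets, 28898 had 1 gene symbol in the platform annotation, which can be old, 551 had several and 15692 none. 28689 matched the RefSeq gene table and 104 control probe sets were left out. Each of 17097 genes was represented by its brightest probe set, by mean over the 47 arrays, and genes under the 40th percentile of that mean (5.80) were dropped, which left 10258.

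All 12 groups were fitted in limma 3.58.1 (R 4.3.3; lmFit, eBayes with an intensity trend, two-sided), with Benjamini-Hochberg adjustment over 10258 genes and a threshold of 0.05. The code was tested on simulated data. The arrays' number limits the precision. Replicate numbers were checked for pairing, and same-numbered arrays deviated from their group means with correlations of -0.193 to 0.03. No pairing was visible, but so few correlations cannot exclude it. Alternatives were other filters, normalisations, probe set rules, trend, array weights, a replicate block, the 8 arrays alone and the omission of each array. Promoters came from RefSeq's GRCm38.p6 table. Motifs were sought in windows of that table.

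The members and gene lists were chosen with earlier results of these data known. Named genes were the 15 largest changes each way among called genes without overlap, up to 6 members of each list with the smallest p, the 8 smallest p in the contrast with other times, core clock genes and markers. Ints5, Pdxk, Gemin6, Scrn2 and Npm1 fall outside that rule and were chosen after their values were seen.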

Additional observations from a re-analysis of the deposited data

Results flagged for a closer look

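In 8 of 158 groups of 4 arrays, over 79 of the genes described above, 1 array lay apart from the other three, and chance alone sets such an array apart in about 1 in 20 groups. Control replicate 1 was high for Coq8b, at 8.43 with the next array at 8.07, in a gene called higher on the high-fat diet, and low for Rgs5 (8.78, next 10.02). Control replicate 4 was high for Chordc1 (9.39, next 9.24), low for Pcolce2 (8.54, next 9.05) and high for Acta1 (7.82, next 5.73). High-fat replicate 1 was high for Clock (8.21, next 7.82) and for Hba-a1 (10.54, next 7.45), and low for Dpt (11.23, next 11.48).

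The diet difference at ZT4 differed from the mean of the other 5 times, at an adjusted p under 0.05 in limma, for many of the genes described. Among genes that passed at ZT4 and were more negative there, the log2 contrast was 1700012D01Rik -1.46, Ppifos -0.88, Pdpr -0.54, Ppif -0.58, Lins1 -0.64, Nup50 -0.37, Olfml3 -0.59 and Acot2 -0.46. Among those that passed and were more positive it was Scrn2 0.46, Adh5 0.59, Gemin6 0.39, Pdxk 0.61, Kat2a 0.63, Tmem222 0.69, Ints5 0.57, Atad2 0.82, Zfp956 0.78, Xkr8 0.65, Cdyl 0.93, Arsk 0.66, Ptar1 0.97, Cpt2 0.83, Satb1 0.94, 4930456A14Rik 1.3 and Bcorl1 0.99. Among genes that did not pass at ZT4 the negative contrasts were Nsdhl -0.97, Npc1 -0.54, Fn1 -1.37, Lox -1.27, Pcolce2 -1.17, Scara5 -1.84, Igfbp5 -1.31, Deptor -0.43 and Rora -0.27. The positive ones were Npm1 0.16, Hspe1 0.49, Hsph1 0.41, Stip1 0.45, Elovl5 0.57, Etfa 0.34, Ppargc1b 1.00, Pprc1 0.61, Ndufs3 0.54, Pdha1 0.45, Dkc1 0.94, Ltv1 0.58, Noc3l 0.64 and Sod2 0.54. Since each time was collected on a day of its own, the effect of the day and that of the time cannot be told apart in these contrasts. Of the 48 genes of these contrasts, 9 did not pass without ZT16 among the other times: Ints5, Hsph1, Stip1, Etfa, Ppargc1b, Pprc1, Npc1, Ltv1 and Rora, with adjusted p-values from 0.0554 to 0.307.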

How the results depend on the processing

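No gene called at ZT4 changed sign in any of the 17 other settings. Those settings reuse the arrays of the calls, and leaving out 1 array cannot change a sign where groups do not overlap. The counts moved. With only the 8 arrays of ZT4 there were 0 higher and 0 lower genes. Centring each array on its median gave 31 lower genes, no filter on low values 20 lower, a filter at the 60th percentile 12 higher, and array weights 8 higher and 3 lower. The cause was not tested, beyond the smaller number of arrays or genes that some of these settings use by construction. Leaving out 1 array at a time gave 7 to 24 higher genes, 3 to 16 lower genes and 103 to 287 genes that differed from the mean of the other times. With the replicate block, 20 genes were higher, 9 lower and 193 differed from the other times. The labels do not say what the number means, and no high-fat array correlated best with the control array of its own number (0 of 4). Cyclic loess normalisation gave 22 higher and 16 lower, and no intensity trend 19 and 11. The medians of 72 lists, each taken under every setting, moved by at least 1 SD of the list mean within groups in 31 cases. The number of arrays limits what can be detected: the median standard error of a gene's difference was 0.133.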
